A study of Homo sapiens with 12 samples.

Results

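A549 cells were compared 0.5 h after the addition of TGFβ with cells taken at 0 h, to ask which genes had changed by then and whether they had done so in most cells or in few. A549 is an established human lung adenocarcinoma line with epithelial features. The cells were selected by the time point of their library, and wells were kept if they held 100 to 40000 unique molecular identifiers (UMIs, each marking 1 captured mRNA molecule), between 2000 and 7000 detected genes and a mitochondrial share of no more than 35%. This gave 678 of the 1871 kept cells of the whole time course, with 181 and 166 cells in the 0 h libraries (replicates 1 and 2) and 137 and 194 cells in the 0.5 h libraries. The series holds 12 CEL-Seq2 libraries, 2 at each of 6 time points, and each library was made from 384 wells with 1 sorted living cell per well. The CEL-Seq2 chemistry reads each mRNA from its 3' end, starting at the poly(A) tail. All cells grew in serum-containing medium, and the labels give TGFβ at 4 ng/mL for every library, with 0 h as the time of the starting samples. All libraries are therefore of 1 cell line, 1 cytokine and 1 dose, and no library at 0.5 h without TGFβ was analysed here, so the effects of TGFβ and of time or handling cannot be told apart. Nothing in the labels ties the 2 replicates of a time to separate cultures, so each p-value reflects only how far these libraries lie apart, which may be technical spread.

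TGFβ binds a pair of serine/threonine kinase receptors, which phosphorylate SMAD2 and SMAD3. These join SMAD4, enter the nucleus and act on genes directly, so the first transcripts to change need no new protein. Many of them belong to the immediate early genes, which also answer serum and stress and encode transcription factors, RNA decay factors and inhibitors of the same signal. In epithelial cells the same pathway leads over days to epithelial-to-mesenchymal transition (EMT), in which cadherins, keratins and matrix genes change.

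The 4 libraries held 3279252 to 3858787 protein-coding UMIs in kept cells, and the median cell held 21234 to 28045 UMIs. Median mitochondrial shares were 25.01% and 23.6% at 0 h and 21.9% and 24.8% at 0.5 h, and these ranges overlapped. The label of the line fitted the markers: 11 of 11 A549 epithelial genes were in the table with summed levels of 15643 to 17311 CPM (protein-coding UMIs of a gene per 1e+06 in its library, with TMM scaling), whereas the endothelial markers summed to at most 0.548 CPM, the fibroblast markers to at most 2.61 CPM and the immune markers to at most 9.27 CPM. Of the 11 epithelial genes 10 had counts enough to be tested. AKR1B10 made up much of their sum, with means of 6942 CPM at 0 h and 5927 CPM at 0.5 h. EPCAM was an exception, its means of 3.77 and 4.31 CPM lying below those of the immune marker CD14 (8.19 and 6.56 CPM). PECAM1, TEK, PTPRC, MS4A1 and DCN were at 0 in all 4 libraries. Replicate 1 carried 1 set of 384 well barcodes at both times and replicate 2 another, with 0 barcodes in common, so replicate number and barcode set cannot be told apart.

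A small set of genes changed. Of 10465 genes tested, 46 passed an adjusted p of 0.05 (0.440%), 41 of them higher at 0.5 h (0.392%) and 5 lower (0.0478%). The test was the quasi-likelihood F test of edgeR, with p-values adjusted by the Benjamini-Hochberg method. At an unadjusted p under 0.05 there were 322 genes, 209 of them higher. The rise was steep for several genes, with 32 of the 41 more than 2-fold and 15 more than 4-fold higher in mean CPM, while the median log2 change of all tested genes was -0.0024. In all 46 genes the 2 libraries of one time lay beyond both libraries of the other, and the direction was the same within replicate number 1 and within number 2. That was also so for 13.0% of all tested genes in the higher and 12.7% in the lower direction, so non-overlap by itself sets a gene apart little. Without 0 h replicate 1 the number of genes fell to 23 and without 0 h replicate 2 to 29. In all 4 fits that left out a library the call held for 22 of the 46 genes, among them JUNB, GADD45B, HES1, SOCS3, KLF10, CSRNP1, ZFP36, CCN2, SMAD7, NOG, ATF3, BHLHE40, IER2, IRF2BPL, HEY1, JUN, ID1, SKIL, PLK2 and CXCL2, and for the other 24 it was lost in at least one.

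**Figure D1:**
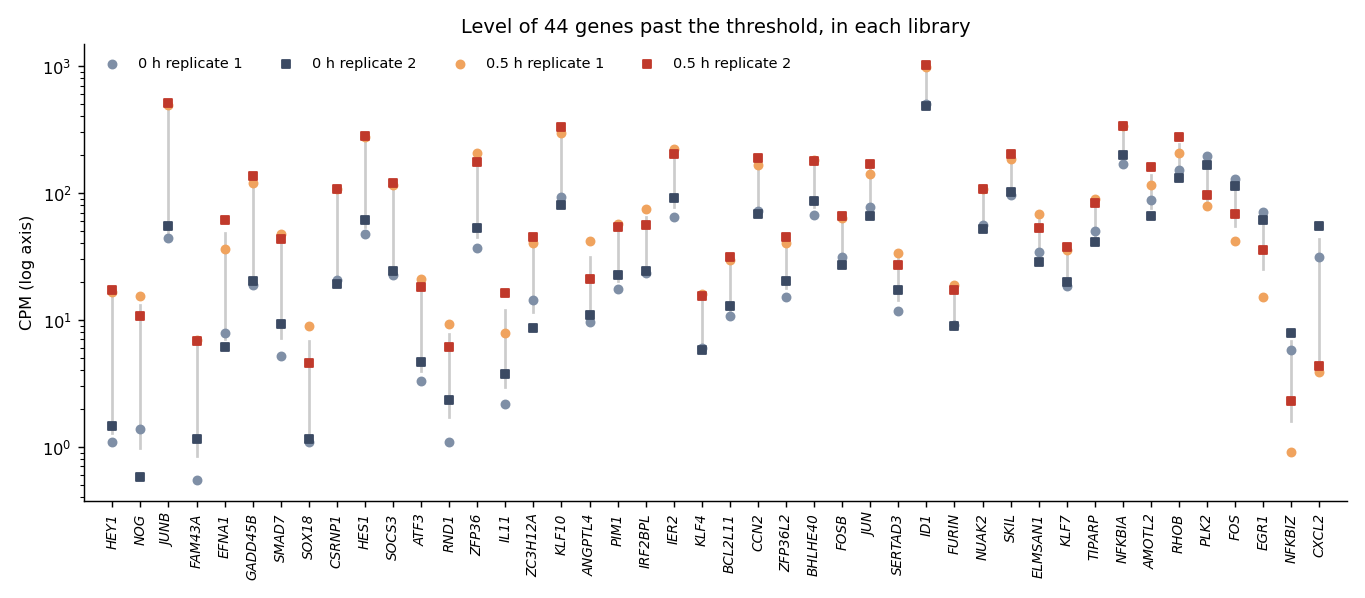
Level of 44 of the 46 genes past the threshold in each of the 4 libraries, in CPM on a log axis, ordered from the highest to the lowest log2 change (circles, replicate 1; squares, replicate 2; grey lines join the means of the 2 times). The 0.5 h points lie above the 0 h points for the 39 genes from HEY1 to RHOB and below them for PLK2, FOS, EGR1, NFKBIZ and CXCL2.

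JUNB had the lowest p-value of all tested genes. It encodes a subunit of the transcription factor AP-1. Its level was 44.1 and 55.0 CPM in the 0 h libraries and 494 and 507 CPM in the 0.5 h libraries. This is a 10.1-fold rise from 49.5 ± 7.73 to 501 ± 9.00 CPM (mean ± SD, n = 2 libraries at each time here and below), with a log2 change of 3.34 ± 0.18 (SE) and an edgeR adjusted p of 9.1e-12. JUNB is a single-exon gene at chr19:12791486-12793315 (plus strand, GRCh38, GENCODE 44). GADD45B, a stress sensor that binds MAP kinase kinases, came next with 18.9 and 20.3 CPM at 0 h and 120 and 137 CPM at 0.5 h (log2 change 2.71 ± 0.17, edgeR adjusted p = 3.3e-10). It lies at chr19:2476122-2478259 on the plus strand. HES1, a repressor best known as an effector of Notch, stood at 47.1 and 60.8 CPM before and at 275 and 281 CPM after (2.37 ± 0.18, edgeR adjusted p = 1.1e-08), from chr3:194136148-194138732 on the plus strand. In each of these 3 genes the gap between the times was many times the gap between replicates.

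Inhibitors of the pathway itself were among the genes that rose. SMAD7, which blocks the receptors and is a direct SMAD target, was found at 5.20 and 9.27 CPM at 0 h and at 47.5 and 43.7 CPM at 0.5 h (2.66 ± 0.31, edgeR adjusted p = 2.7e-05). KLF10, a TGFβ-inducible repressor, increased from 92.8 and 80.2 CPM to 297 and 330 CPM (1.86 ± 0.16). SKIL, which encodes the SMAD corepressor SnoN, moved from 95.8 and 101 CPM to 184 and 203 CPM (0.97 ± 0.15), less than 2-fold in the means. These were the 3 of 12 tested feedback genes that passed. Gene lists here and below were chosen with earlier results of these data known, so their counts are descriptions. Over all tested genes 0.392% were called higher and 0.0478% lower. All 12 feedback genes had a log2 change above 0, with a median of 0.37. Both 0.5 h libraries were above both of 0 h in 10 of 12, against 13.0% of all tested genes. Of those that did not pass, BAMBI, a decoy receptor, had a log2 change of 0.73 ± 0.29 and TGIF1, a corepressor, of 0.36 ± 0.20 (adjusted p = 1 for both).

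The promoter window of SMAD7 is shown because it holds 2 copies of the SMAD box CAGAC, in capitals. The sequence comes from RefSeq (GRCh38.p14) and reads 5' to 3' in the direction of transcription over chr18:48951076-48951195 (minus strand), from 230 to 111 bases before the start site.
SMAD7: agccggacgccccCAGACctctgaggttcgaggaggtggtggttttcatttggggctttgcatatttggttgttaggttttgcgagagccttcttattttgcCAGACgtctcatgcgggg

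Of the 15 tested receptors and SMADs 0 passed with edgeR or DESeq2, and 0 had an unadjusted p under 0.05 (10 above 0, median log2 change 0.16). BMPR1A had a log2 change of 0.41 ± 0.21 and BMPR1B of -0.39 ± 0.20. Among the 15 tested ligands and binding proteins 1 passed. NOG, which encodes the BMP antagonist noggin, was at 1.37 and 0.579 CPM at 0 h and at 15.3 and 10.7 CPM at 0.5 h (3.66 ± 0.46, edgeR adjusted p = 3.3e-05). This is a large ratio on a low level. FSTL3 and BMP2, which did not pass, had log2 changes of 0.47 ± 0.21 and 1.75 ± 0.90.

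The list of TGFβ and SMAD targets was chosen with earlier results of these data known, and it shares SMAD7 and SKIL with the feedback genes. Of its members 9 of 20 tested rose (45.0%, against 0.392% of all tested genes) and 0 fell, with a list median of 0.89. Besides JUNB, SMAD7 and SKIL these included CCN2, BHLHE40, ANGPTL4, IL11 and RHOB. CCN2, the matricellular protein CTGF, went from 71.5 and 68.0 CPM to 164 and 189 CPM (1.34 ± 0.16). BHLHE40, a circadian repressor, had 66.8 and 86.9 CPM before and 181 and 179 CPM after (1.23 ± 0.16). The replicates at 0.5 h were less alike in ANGPTL4, IL11 and RHOB. ANGPTL4, a lipase inhibitor, was at 9.58 and 11 CPM and then at 41.5 and 21.1 CPM (1.59 ± 0.27), and IL11, a cytokine, was at 2.19 and 3.76 CPM and then at 7.81 and 16.3 CPM (2.04 ± 0.40). RHOB, a small GTPase, had 150 and 130 CPM at 0 h and 208 and 276 CPM at 0.5 h (0.79 ± 0.17). PDGFB (1.86 ± 0.43, adjusted p = 0.060) and CCN1 (1.32 ± 0.28, adjusted p = 0.11) missed the threshold.

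The AP-1 and ATF subunits split by direction, with 4 of 11 tested higher and 1 lower. JUNB, JUN, FOSB and ATF3 rose, JUN from 77.2 and 66.0 CPM to 140 and 170 CPM (1.11 ± 0.16), FOSB from 31.5 and 27.2 CPM to 63.1 and 65.5 CPM (1.13 ± 0.21) and ATF3 from 3.29 and 4.63 CPM to 21.0 and 18.3 CPM (2.30 ± 0.30). FOS, the founding partner of the JUN proteins, fell from 128 and 113 CPM to 41.8 and 67.8 CPM (-1.13 ± 0.24, edgeR adjusted p = 0.039). At 0.5 h JUNB was thus by UMI counts the most abundant of the 4 that rose, and FOS was below its starting level. FOS lost its call without any 1 of 3 libraries (0 h replicate 1, 0 h replicate 2, 0.5 h replicate 1) and in the fit with the replicate number as a block. The FOS call was also lost over all non-mitochondrial genes, under stricter cell limits and against a 1.5-fold change. The FOSB call was lost in cells thinned to equal UMI counts, under stricter cell limits and against a 1.5-fold change. FOSB was also not among the genes whose call held in all 4 fits that left out a library. MAFF (0.94 ± 0.26, adjusted p = 0.20) and FOSL1 (0.74 ± 0.29, adjusted p = 1) did not pass.

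Other immediate early genes likewise moved both ways, 7 of 24 tested higher and 2 lower (median 0.58). CSRNP1, a nuclear protein inducible by AXIN1, rose from 20.5 and 19.1 CPM to 107 in both libraries (2.42 ± 0.20). ZFP36 and ZFP36L2 encode proteins that mark AU-rich mRNAs for decay. ZFP36 rose from 36.7 and 53.0 CPM to 208 and 176 CPM (2.10 ± 0.20) and ZFP36L2 from 15.1 and 20.3 CPM to 40.6 and 45.0 CPM (1.28 ± 0.22). IER2 rose from 64.6 and 91.5 CPM to 220 and 202 CPM (1.43 ± 0.19). The transcription factor KLF4 rose from 6.02 and 5.79 CPM to 15.9 and 15.5 CPM (1.404 ± 0.32, edgeR adjusted p = 0.046). The KLF4 call was lost with DESeq2, in cells thinned to equal UMI counts and over all non-mitochondrial genes. It was also lost under stricter cell limits and against a 1.5-fold change.

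EGR1, a zinc finger factor typical of serum and MAP kinase signaling, went the other way, from 70.4 and 61.4 CPM to 15.0 and 35.6 CPM (-1.36 ± 0.28, edgeR adjusted p = 0.046). PLK2, a kinase of the polo family, fell from 194 and 164 CPM to 78.7 and 96.8 CPM (-1.03 ± 0.16, edgeR adjusted p = 4.7e-04). The 2 replicates at 0.5 h differed for EGR1 by more than those at 0 h, and its call was lost under the replicate block, with DESeq2 size factors and without any 1 of 3 libraries. The EGR1 call was also lost over all non-mitochondrial genes, under stricter cell limits and against a 1.5-fold change. TRIB1 (0.99 ± 0.23, adjusted p = 0.058) and SRF (0.75 ± 0.23, adjusted p = 0.41) did not pass. Of 11 tested MAP kinase phosphatases and Sprouty genes, which brake the MAP kinase pathway, 0 passed with edgeR or DESeq2 and 3 had an unadjusted p under 0.05, with a list median of -0.21. These were DUSP5, with a log2 change of -0.69 ± 0.23, DUSP1 with 0.47 ± 0.18 and SPRY4 with 0.92 ± 0.37.

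The EGR1 promoter is given for its 2 CArG boxes, the site of serum response factor, shown in capitals. The window covers chr5:138465359-138465448 (plus strand), 120 to 31 bases before the start site (RefSeq, GRCh38.p14).
EGR1: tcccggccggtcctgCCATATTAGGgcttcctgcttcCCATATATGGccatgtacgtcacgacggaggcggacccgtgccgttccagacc

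The repressors HES1 and HEY1 rose, and so did ID1. HES1 and HEY1 were the 2 of 12 tested Notch genes that passed. Their relatives HES4 and HEYL had log2 changes of 0.19 and -0.53 (adjusted p = 1 for both). HEY1 went from 1.09 and 1.45 CPM to 16.5 and 17.0 CPM (3.68 ± 0.53, edgeR adjusted p = 2.2e-04), the largest log2 change among the 46, on a low level. NRARP, an inhibitor of Notch, had a log2 change of 1.21 ± 0.41 without passing (adjusted p = 0.70). ID1, an inhibitor of helix-loop-helix factors and a target of BMP signaling, had the highest UMI counts of the genes that rose, with 504 and 486 CPM at 0 h and 986 and 1021 CPM at 0.5 h (1.02 ± 0.15). It was the 1 of 7 tested ID and BMP target genes that passed. ID2 had a log2 change of 0.50 ± 0.18 and ID4 of 1.87 ± 0.64.

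Genes tied to NF-kB moved in both directions, 1 of 20 tested higher and 2 lower. CXCL2, a chemokine that attracts neutrophils, was at 31.5 and 55.3 CPM at 0 h and at 3.91 and 4.32 CPM at 0.5 h. It thus fell to 0.0961 of its starting mean (log2 change -3.38 ± 0.39, edgeR adjusted p = 7.9e-05), the largest decrease measured among the 46. NFKBIZ, an atypical IkB protein that coactivates inflammatory genes, fell from 5.75 and 7.82 CPM to 0.901 and 2.29 CPM (-2.01 ± 0.45, edgeR adjusted p = 0.040). These levels rest on 21 and 27 UMIs at 0 h and on 3 and 9 at 0.5 h. The NFKBIZ call was lost in cells thinned to equal UMI counts and with only the 4 libraries in the fit. It was also lost under stricter cell limits and against a 1.5-fold change, and did not hold in all 4 fits that left out a library. NFKBIA, which encodes the inhibitor IkBα, rose from 168 and 198 CPM to 335 and 336 CPM (0.87 ± 0.16, edgeR adjusted p = 0.0033). The neighboring chemokines CXCL1 and CXCL3 had log2 changes of -1.20 ± 0.31 (adjusted p = 0.17) and -1.92 ± 0.62 (adjusted p = 0.75). Suppressors of cytokine signaling gave 1 call in 5 tested. SOCS3, which brakes JAK and STAT signaling, rose from 22.7 and 24.3 CPM to 116 and 120 CPM (2.32 ± 0.19, edgeR adjusted p = 2.2e-08), whereas SOCS2 had a log2 change of 0.56 ± 0.26 (adjusted p = 1).

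CXCL2 and NFKBIA moved in opposite directions and both have kappaB sites, the binding sites of NF-kB, in the window from 120 to 31 bases before the start site, marked in capitals (in CXCL2 2 overlapping matches). The windows are chr4:74099226-74099315 for CXCL2 and chr14:35404780-35404869 for NFKBIA, both on the minus strand (RefSeq, GRCh38.p14).
CXCL2: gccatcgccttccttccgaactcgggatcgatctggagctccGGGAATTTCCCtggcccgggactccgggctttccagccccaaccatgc
NFKBIA: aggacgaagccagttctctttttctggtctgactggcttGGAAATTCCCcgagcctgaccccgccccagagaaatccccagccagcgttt

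A further 16 of the 46 genes stood in none of the gene lists, and all 16 rose. Among them were EFNA1, an ephrin ligand, with 7.94 and 6.08 CPM at 0 h and 36.4 and 61.0 CPM at 0.5 h (2.79 ± 0.44), and PIM1, a survival kinase, with 17.5 and 22.6 CPM and then 57.1 and 53.8 CPM (1.47 ± 0.22). ZC3H12A, an RNase that degrades inflammatory mRNAs, had 14.2 and 8.69 CPM before and 39.95 and 44.7 CPM after (1.88 ± 0.29). BCL2L11, the proapoptotic protein BIM, went from 10.7 and 12.7 CPM to 29.7 and 31.5 CPM (1.39 ± 0.22). FURIN, the protease that processes the TGFβ precursor, went from 9.04 and 8.98 CPM to 18.9 and 17.0 CPM (0.99 ± 0.23, edgeR adjusted p = 0.048). The FURIN call was lost with DESeq2, with DESeq2 size factors, with only the 4 libraries in the fit and over all non-mitochondrial genes. It was also lost in cells thinned to equal UMI counts, under stricter cell limits and against a 1.5-fold change. The other 11 ranged in log2 change from 0.85 for AMOTL2 to 2.97 for FAM43A. Besides these 2 they included IRF2BPL (1.45), NUAK2 (0.99), ELMSAN1 (0.96), TIPARP (0.91), KLF7 (0.93), SERTAD3 (1.07), RND1 (2.15) and SOX18 (2.53). Large ratios on low levels were those of FAM43A (2 and 4 UMIs at 0 h, 23 and 27 at 0.5 h), RND1 (4 and 8, then 31 and 24) and SOX18 (4 and 4, then 30 and 18). DESeq2 did not call AMOTL2, SERTAD3, RND1 or SOX18.

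Genes of EMT had not moved past the threshold at this time. Of 12 tested EMT transcription factors 0 passed, and of 22 tested EMT effectors 0 passed (list medians 0.06 and 0.17), with edgeR or with DESeq2. At an unadjusted p under 0.05 there were 2 genes in each list. SNAI1, which encodes Snail, had a log2 change of 1.39 ± 0.43 (adjusted p = 0.52) and ETS2 of 0.60 ± 0.19 (adjusted p = 0.52). For the cadherins, log2 changes were -0.12 ± 0.29 (CDH1, E-cadherin) and 0.45 ± 0.30 (CDH2, N-cadherin), for vimentin (VIM) 0.10 ± 0.17 and for fibronectin (FN1) -0.32 ± 0.19, all at an adjusted p of 1. The signs of CDH1, VIM and FN1 flipped under some alternative settings. CLDN4 (2.28 ± 0.68) and COL4A1 (0.60 ± 0.27) were the effectors with the lowest p-values.

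Lists for other responses gave 0 calls with edgeR or DESeq2. These were the actin genes (13 tested, median 0.09), heat shock genes (10 tested, median 0.03), stress and hypoxia genes (11 tested, median 0.34), EGF receptor genes and ligands (6 tested, median 0.05), ribosomal proteins (20 tested, median -0.05) and A549 epithelial markers (10 tested, median -0.03). ADM (0.73 ± 0.18, adjusted p = 0.080), DDIT4 (0.74 ± 0.19, adjusted p = 0.12) and HBEGF (1.63 ± 0.43, adjusted p = 0.15) came nearest. At an unadjusted p under 0.05 there were 3 stress and hypoxia genes, 1 actin gene, 1 EGF receptor ligand and 1 G2/M gene, and 0 in the other lists named here. The G2/M genes also gave 0 calls, but all 15 had a log2 change below 0 (median -0.25). Their summed level was 2179 and 2181 CPM at 0 h and 1751 and 2034 CPM at 0.5 h, lower in both 0.5 h libraries, and the part of this in the results was not tested.

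**Figure D2:**
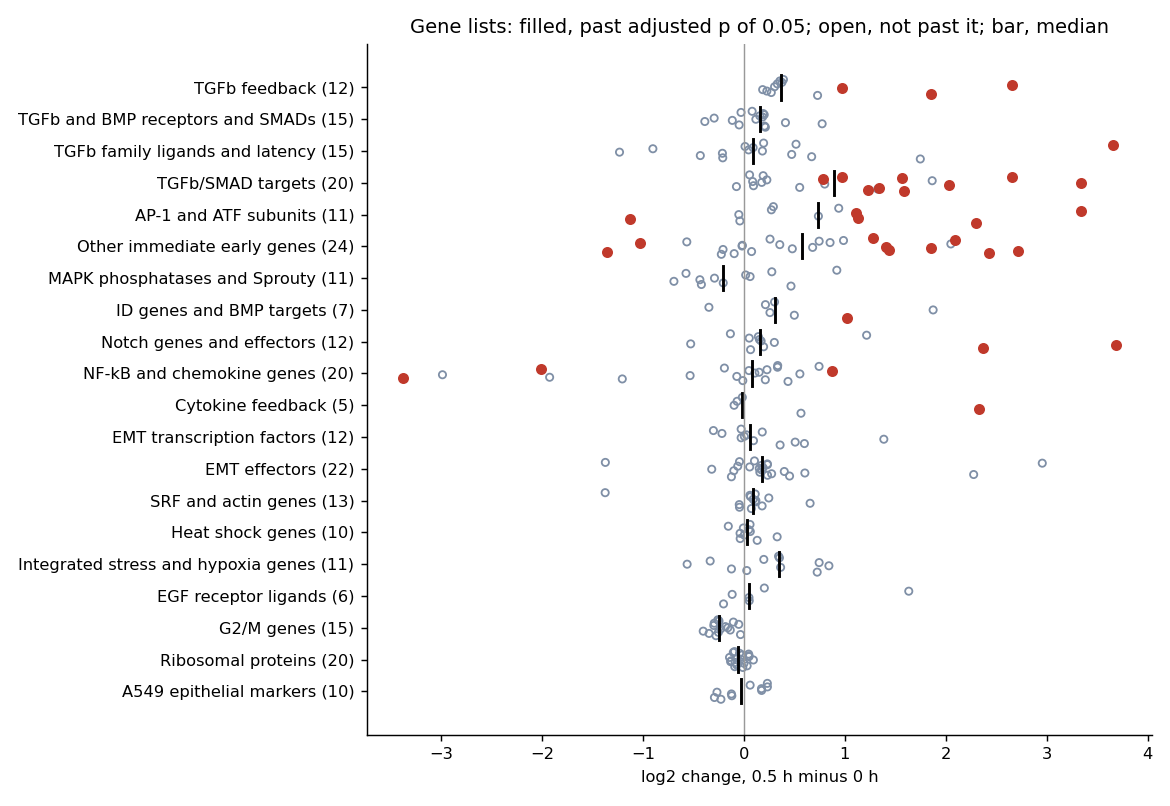
Log2 change (0.5 h minus 0 h) of each tested member of the gene lists with at least 5 tested genes; the number tested stands in parentheses, filled points passed an adjusted p of 0.05, open points did not, and black bars are list medians. Calls sit in the feedback, target, AP-1, immediate early, ID, Notch, NF-kB, cytokine feedback and ligand lists, and G2/M genes lie left of 0.

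Whether the early genes rose in most cells or in few was asked in cells thinned to an equal 12.5k protein-coding UMIs, which left 169, 152, 124 and 175 cells in the 4 libraries (0 h replicates 1 and 2, then 0.5 h) and left out 58 shallower cells. Cells are not replicates, and these values are descriptions. JUNB had a UMI in 32.0% and 33.6% of 0 h cells and in 96.0% and 98.3% of 0.5 h cells. The 95% Wilson intervals, which cover counting error only, were 25.4% to 39.3% and 26.5% to 41.4% at 0 h and 90.9% to 98.3% and 95.1% to 99.4% at 0.5 h. Its median was 0 UMIs per cell in both 0 h libraries and 6 in both 0.5 h libraries, and its mean rose from 0.604 ± 0.151 to 6.23 ± 0.194 UMIs. Of the 0.5 h cells 76.6% and 80.0% held more JUNB than the 95th percentile of 0 h cells (3 UMIs). JUNB was thus higher in most cells.

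The share of cells above the 95th percentile of 0 h cells was over 50% in both libraries for 2 of the 41 genes, JUNB and KLF10 (50.8% and 56.6%). It was 50% and 41.7% for HES1, 46.8% and 50.3% for GADD45B and 26.6% and 40% for ID1, whose cells at the 2 times thus overlapped more. KLF10 had a UMI in 60.4% and 62.5% of 0 h cells and in 99.2% and 97.7% of 0.5 h cells, and HES1 in 33.7% and 42.8% and then in 92.7% and 90.3%. GADD45B went from 20.1% and 21.7% of cells to 78.2% and 77.1%. ID1 was already found in 93.5% and 93.4% of cells and then in 100% of both libraries, and its median per cell changed from 5 to 12 UMIs. SMAD7 was found in 7.69% and 9.87% of cells and then in 38.7% and 41.1%, and CXCL2 in 24.3% and 36.8% and then in 4.03% and 4.57%. For SMAD7 the intervals reached up to 15.6% at 0 h and down to 30.6% at 0.5 h, and for CXCL2 down to 18.4% at 0 h and up to 9.09% at 0.5 h. All 41 genes that rose had larger shares in both 0.5 h libraries than in both 0 h libraries, and all 5 that fell had smaller ones. These genes were called on sums that include the same cells, so their shares are no separate support. The matching count over all tested genes was not made. At 0.5 h 20 of the 41 were found in over 50% of cells of both libraries, against 7 at 0 h, and 8 were found in under 25%.

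**Figure D3:**
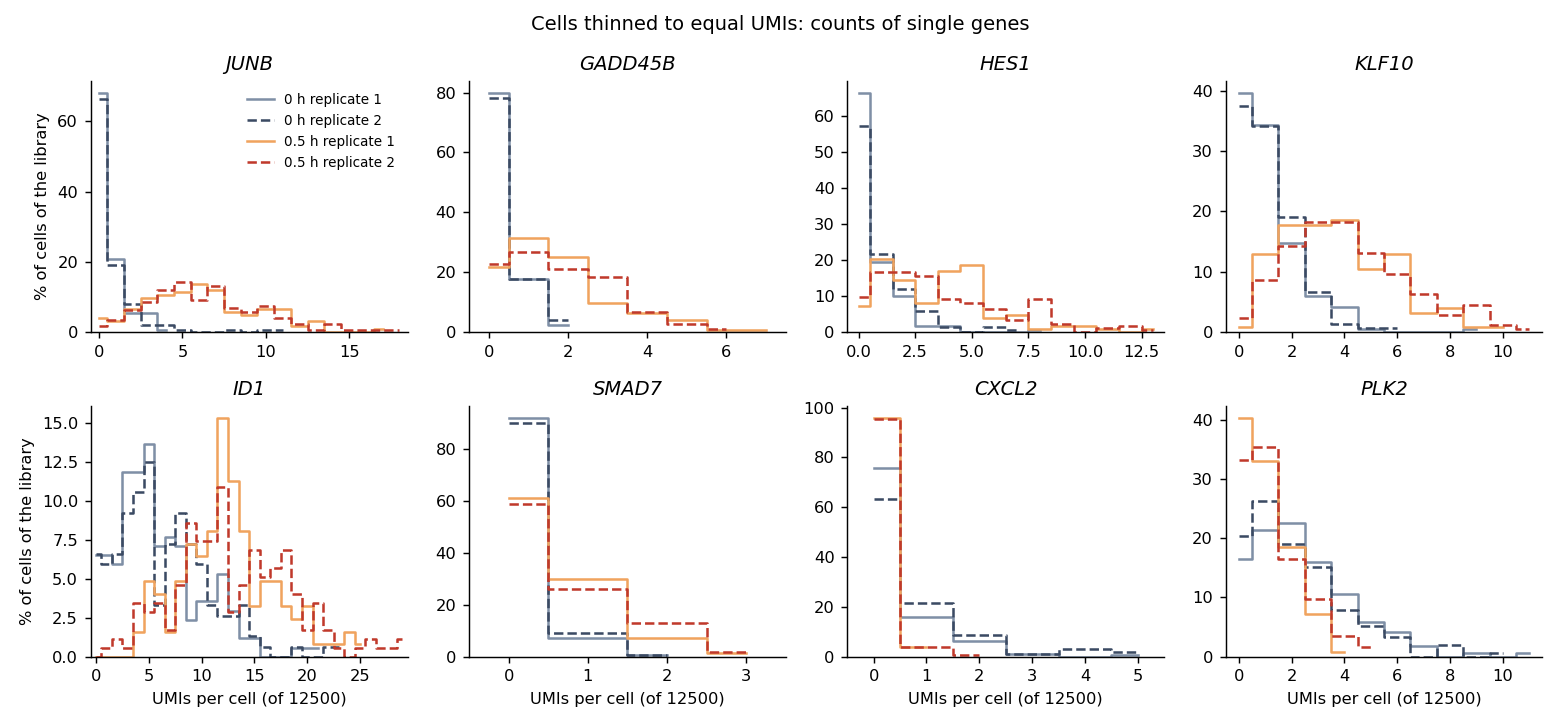
UMIs per cell of 8 genes in cells thinned to 12.5k UMIs, as a percentage of the cells of each library (solid lines, replicate 1; dashed lines, replicate 2; blue, 0 h; orange and red, 0.5 h). JUNB, KLF10, HES1 and ID1 lie at higher counts at 0.5 h, ID1 with wide overlap between the times, while SMAD7 stays at 0 to 3 UMIs and CXCL2 loses most of its counts above 0.

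The 4 response markers that rose, JUNB, SMAD7, GADD45B and HES1, were summed per cell, and CXCL2, the marker that fell, was left out. They were picked because they rose in these data, so a higher sum at 0.5 h was set in advance. The values describe only how it was spread over cells. For this sum the median cell held 1 UMI in each 0 h library and 11 and 12 UMIs in the 0.5 h libraries. Of the 0.5 h cells 92.7% and 92.6% were above the 95th percentile of 0 h cells, against 1.78% and 4.61% of the 0 h cells themselves. Cells at or below the median of 0 h cells made up 0 of 124 cells of 0.5 h replicate 1, which allows a share of up to 2.42%, and 0.571% of replicate 2. For the 20 listed TGFβ targets found in the table the share above the 95th percentile was 50.8% and 62.9%.

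Spread between cells was set against a Poisson count of the same mean, which gives the share of cells expected at 0 from counting alone. For the 41 genes that rose, the excess of 0.5 h cells at 0 over this value had a median of 1.69 percentage points. The excess depends on the mean, so each gene was set against all tested genes of its class. In the class with a mean of 0.1 to 1 UMI the 20 and 19 members in replicates 1 and 2 had medians of 1.38 and 1.90 points, against 0.517 and 0.514 for all genes. From 1 to 5 UMIs the 16 members in each library had 2.202 and 3.47 points, against 1.59 and 1.62. The medians of the genes that rose thus lay above those of their class in both libraries, and no test was made of this. Each class is wide and genes were not matched for their mean within it. The part of the mean in this gap was therefore not tested, and the same limit applies to the 90th percentiles below. In replicates 1 and 2, 2 and 3 of the 41 genes had means outside the classes used. How many of all tested genes lie over the 90th percentile of their class in both libraries was not computed. An excess over the 90th percentile of the class in both libraries was found for 6 of the 41 genes. Among them, ZFP36 had 18.2 and 8.45 points, CCN2 11.02 and 9.00, SOCS3 8.78 and 10.48 and AMOTL2 6.94 and 7.55, where the 90th percentiles were 6.05 and 6.01. JUNB, in the class of 5 to 20 UMIs, had 3.81 and 1.54 points against 1.31 and 1.18, its cells at 0 being 4.03% and 1.71%. KLF10 had -1.53 and 0.707 points and GADD45B 2.94 and 5.05, below the 90th percentiles of their class. Of the genes with low shares, HEY1 (17.7% in both libraries) had 0.517 and 2.26 points and NOG (20.2% and 12.6%) -1.90 and 0.244. IL11 was found in 4.03% and 9.71% of 0.5 h cells with an excess of 0.691 and 10.7 points, and 1 cell of replicate 2 held 9 UMIs.

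**Figure D4:**
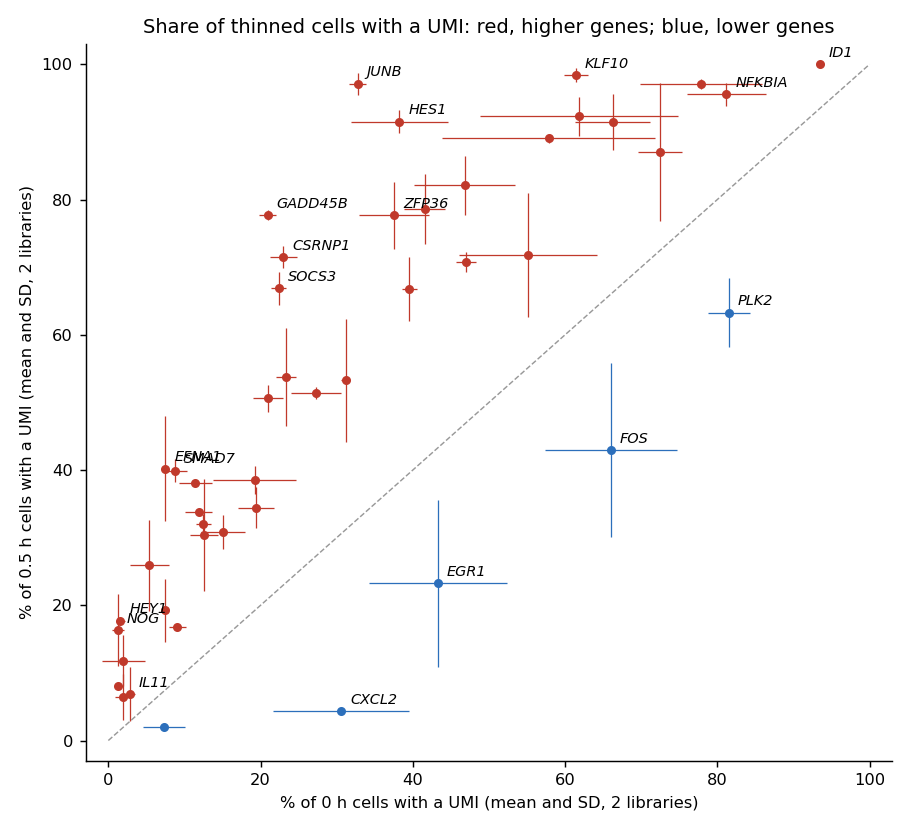
Share of thinned cells with at least 1 UMI at 0 h and at 0.5 h for the 46 genes (points, mean; bars, SD over 2 libraries; dashed line, equal shares). The 41 genes that rose lie above the line and the 5 that fell below it, with JUNB moving from 32.8% to 97.1%.

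JUNB was similar in kinds of cells that could have differed. In 0.5 h cells with G2/M counts at or below the library median it averaged 6.52 and 6.14 UMIs, and in those above it 5.68 and 6.61. By mitochondrial share the low and high sides had 5.55 and 6.65 UMIs in replicate 1 and 6.59 and 6.15 in replicate 2. The order of the sides was not the same in the 2 libraries for either split.

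Wells with under 1000 detected genes (172, 167, 155 and 129 in the 4 libraries) were examined beside the cells. Whether they held an intact cell is not known. Their median depth was 1007 to 1257 UMIs, far below the 12.5k of thinned cells, so shares in the 2 kinds of well are not on one scale. JUNB had a UMI in 2.91% and 6.59% of these wells at 0 h and in 51.6% and 53.5% at 0.5 h, with a mean of 0.761 and 0.760 UMIs at 0.5 h against 6.10 and 6.37 in thinned cells. The shares at 0.5 h were 20% and 18.6% for HES1, 40% and 43.4% for KLF10, 5.16% and 6.98% for GADD45B, 56.1% and 50.4% for ID1 and 5.81% and 8.53% for SMAD7. Per UMI (CPM without TMM scaling) the low wells held JUNB at 674 and 698 and KLF10 at 492 and 577 CPM at 0.5 h, above their levels in cells. HES1 stood at 189 and 207, GADD45B at 45.7 and 64.1 and ID1 at 777 and 741 CPM, below their levels in cells. EGR1 had a UMI in 37.8% and 35.3% of low wells at 0 h, near the 49.7% and 36.8% of thinned cells in spite of the depth, and stood in them at 494 and 378 CPM. The source of the RNA in low wells, and its part in the shares of cells, was not tested.

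The 12 h libraries show what followed. The 2 comparisons share the 0.5 h libraries, and 12.0% of all tested genes passed between 0.5 h and 12 h. Of the 41 genes that rose by 0.5 h, 14 fell by 12 h, 9 rose further and 18 did not pass. HES1, SOCS3 and ID1 were among those that fell. HES1 stood at 278 CPM at 0.5 h and changed by -2.16 ± 0.18 to 12 h (edgeR adjusted p = 4.5e-09), and SOCS3 changed by -2.23. Against 0 h their log2 changes at 12 h were 0.21 and 0.09. The others that fell were KLF10, ZFP36, HEY1, PIM1, ZFP36L2, NFKBIA, ELMSAN1, TIPARP, SERTAD3, KLF4 and AMOTL2.

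Of the 9 genes that rose further 5 were listed TGFβ targets, among them IL11, ANGPTL4, SKIL and CCN2. Listed targets made up 9 of the 41 genes that rose by 0.5 h, in a list chosen with earlier results of these data known. The listed targets JUNB, SMAD7, BHLHE40 and RHOB did not pass between 0.5 h and 12 h. On the log2 scale IL11 rose by another 4.07, ANGPTL4 by 3.06, FURIN by 2.01, FAM43A by 2.001, SKIL by 1.20, EFNA1 by 1.16, KLF7 by 1.05 and CCN2 by 0.95. JUNB, GADD45B and SMAD7 did not pass between 0.5 h and 12 h (0.27, -0.25 and -0.76). At 96 h JUNB stood 3.29 and GADD45B 2.19 above 0 h on the log2 scale. Of the 5 genes that fell, CXCL2 (2.07), NFKBIZ (2.93) and EGR1 (2.71) rose by 12 h, while PLK2 and FOS did not pass. At 12 h CXCL2 still had a log2 change of -1.31 against 0 h.

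The genes that rose were short. The median transcribed span of the 41 (the GENCODE canonical transcript from start to end) was 5.28 kb, against 30.8 kb for all tested genes, and their median exon number was 4 against 9. Of the 41, 68.3% were under 10 kb against 20.4% of all tested genes. JUNB spans 1.83 kb, GADD45B 2.13 kb and ID1 1.22 kb, and the 1 gene over 50 kb was KLF7 at 91.8 kb. Of tested genes under 5 kb 2.12% rose, and the share was lower in each longer class, down to 0.0556% for 50 to 100 kb and 0 of 1881 genes of 100 kb and over. The median level at 0 h also differed between the classes, from 25.6 CPM under 5 kb and 22.0 to 23.5 CPM in the 4 classes between 5 and 100 kb down to 16.4 CPM from 100 kb on, and its part in the result was not tested. The 41 genes themselves had a median of 20.1 CPM at 0 h, against 21.6 CPM for all tested genes, and the median SE of the log2 change was 0.234 to 0.257 in every class. The 5 genes that fell were short too, with a median of 3.83 kb.

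**Figure D5:**
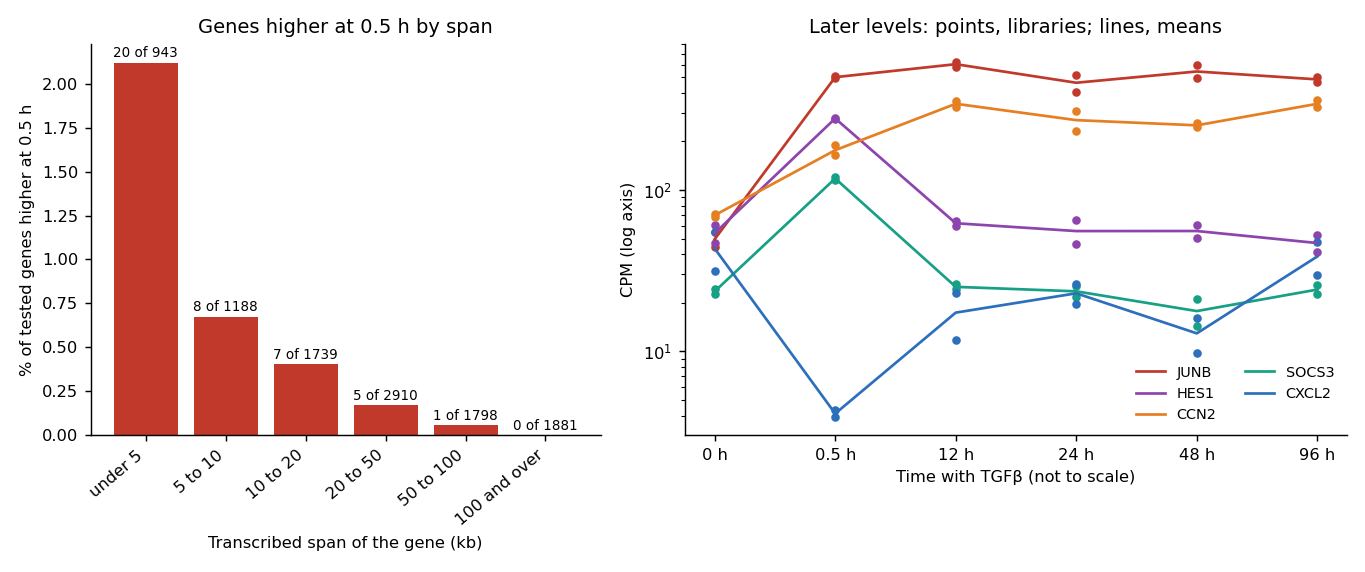
Left, percentage of tested genes that rose at 0.5 h in each class of transcribed span (kb), with their number. Right, CPM (log axis) of 5 genes in each of the 12 libraries over the 6 time points. The share that rose is highest under 5 kb (2.12%) and 0 from 100 kb on, and HES1 and SOCS3 peak at 0.5 h while JUNB stays high and CCN2 climbs to 12 h.

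Promoter letters differed less. RefSeq promoters (250 bases before to 50 after the start site) were found for 8516 of the tested genes, among them 32 of the 41 that rose and all 5 that fell. The SMAD box CAGAC on either strand was in 59.4% of the 32 against 42.0% of all, and in 3 of the 5 genes that fell (60.0%). Among those 5 GGCGCC was also in 60.0% and kappaB in 40%. For other motifs the shares of the 32 were 28.1% against 31.9% for GGCGCC, 3.13% against 4.33% for the AP-1 site TGANTCA, 6.25% against 3.36% for TGACGTCA, 0% against 0.153% for the SMAD palindrome GTCTAGAC, 15.6% against 12.9% for kappaB and 0% against 0.998% for the CArG box. The median GC content of the windows was 67.0% and 65.7%.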

How the data were processed

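CEL-Seq2 counts of single A549 cells were used. The authors deposited raw UMI counts for 29035 genes in 4608 wells, not normalized. Per the labels, reads were trimmed with Trim Galore 0.6.7, aligned to GRCh38 with HISAT2 2.2.1, assigned with featureCounts 2.0.1 and collapsed to UMIs with UMI-tools, and the study's methods give other versions of some of these tools. Neither annotation release nor strand setting is given in the sources used here, which leaves antisense and overlapping genes uncertain. The members and gene lists were chosen with earlier results of these data known.

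Counts of the kept cells were added up in each library for 15871 protein-coding genes, and tested with edgeR 4.0.16 in R 4.3.3 (TMM, filterByExpr, robust quasi-likelihood fit) in 1 model of all 12 libraries, contrast 0.5 h minus 0 h, with adjustment over 10465 genes. SE was taken from the log2 change and the F statistic. The text names 5 response markers, every gene past the threshold, per list some of the up to 4 other members with the lowest p, and 5 EMT genes; some genes that meet this rule are counted but not reported here. Deviations from the time point means of same-numbered 0 h and 0.5 h libraries correlated at -0.100 over 7455 genes, and the replicate number was left out of the model. Cells were thinned without replacement (seed 20240508). Doublets were not searched for, as wells received single sorted cells. DESeq2 1.42.0 and other settings were alternatives. In simulated counts for this comparison 200 of 10251 genes were changed, all of them above a floor of mean counts. Of genes changed 1.5-fold edgeR recovered 26.9%, at 2-fold 70.1% and at 4-fold 97.0%. It also called 8 of 10051 unchanged genes. Recovery of genes with lower counts was not measured. Figures were drawn in Python 3.11.15.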

Additional observations from a re-analysis of the deposited data

Results flagged for a closer look

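Outside the protein-coding genes of the deposited table, VEGFA, which the table types as a polymorphic pseudogene and which encodes a vascular growth factor, rose. It was at 29.6 and 29.8 CPM of all non-mitochondrial counts at 0 h and at 65.7 and 73.9 CPM at 0.5 h, with a log2 change of 1.21 ± 0.19 and an edgeR adjusted p of 0.0014 among 11661 genes tested.

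Wells with under 1000 genes, which no comparison of genes used, carried JUNB in 51.6% (replicate 1) and 53.5% (replicate 2) at 0.5 h, above the 2.91% and 6.59% at 0 h. JUNB in them stood at 674 and 698 CPM at 0.5 h and 30.1 and 59.3 CPM at 0 h, without TMM scaling. The source of this RNA was not tested.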

How the results depend on the processing

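The 46 genes kept their direction in each of the 14 alternatives that tested them. Called in every one were 10 genes, among them ZFP36, KLF10, SOCS3, GADD45B, JUNB, HES1, IER2, BHLHE40 and CSRNP1. Stricter cell limits, which leave 7 to 26 cells per library, gave 13 genes (12 higher, 1 lower) and a test against a 1.5-fold change 21 (20 higher, 1 lower). With 1 library left out there were 23 to 35 (21 to 32 higher, 2 to 4 lower), the lone library being assumed to vary like the others. The number lower was 10 without the low-count filter and 3 over all non-mitochondrial genes. With the replicate block 56 genes passed, and EGR1 and FOS were lost. With the 0.5 h numbers crossed, an alternative chosen after seeing the data because of the negative correlation, 64 passed, 9 of them lower. DESeq2 called 42. Numbers pair no samples in the labels. Genes that did not pass changed sign in some settings, FN1 to 0.64 under stricter cell limits, and with 1 library left out RPS12 ranged from -0.40 to 0.15, CDH1 from -0.38 to 0.077 and VIM from -0.045 to 0.26, the changed signs (RPS12 0.15, CDH1 0.011 and 0.077, VIM -0.042 and -0.045) coming without 0 h replicate 1 or without 0.5 h replicate 1. The cause was not tested.

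The difference in the share of cells with a UMI was 64.4 percentage points for JUNB, 31.1 for SMAD7, 56.8 for GADD45B, 53.3 for HES1 and -26.2 for CXCL2. At 6.25k UMIs it was 72.0 for JUNB, 19.3 for SMAD7, 38.5 for GADD45B and -14.7 for CXCL2, and without thinning 52.5 for JUNB, 46.5 for SMAD7 and 54.7 for GADD45B. Depth sets these shares, and the direction was the same at each depth.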
